A study of Homo sapiens with 4 samples.

Results

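Polycomb repressive complex 2 (PRC2) is the enzyme complex that methylates lysine 27 of histone H3, and the accessibility of the genes for 7 of its subunits is described here. They are the catalytic subunits EZH2 and EZH1, the core subunits EED, SUZ12 and RBBP4, and the accessory subunits JARID2 and AEBP2. Every ATAC-seq peak of the 4 libraries that overlapped the body of one of these genes, or the 10 kb on either side of it, was taken. That gave 24 peaks of 49155 with the empty vector, 21 of 44090 with PHF19 overexpression, 29 of 69830 with the IFN empty vector and 23 of 45825 with IFN PHF19 overexpression. Merged where they overlapped, they formed 30 of the 73729 regions of the series. Of these, 14 belonged to JARID2, which spans 276.0 kb, 5 to EED, 3 each to EZH2 and EZH1, 2 each to SUZ12 and AEBP2, and 1 to RBBP4.

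ATAC-seq cuts and tags open DNA with the Tn5 transposase. It was run on AMO1, a human myeloma line of plasma cell origin, whose tissue label is Blood. Cells of genotype WT carried the empty PCDH vector, and cells of genotype PHF19 overexpression carried the vector with a PHF19 plasmid. The libraries titled IFN carry the same 2 vectors, and their labels do not explain the prefix. Each of the 4 groups held 1 library, so no comparison has a replicate and no difference was tested. The intervals given are 95% intervals that cover counting error only. The labels do not say whether transfected cells were a clone, a pool or a selected population.

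In PRC2, EZH2 or its paralogue EZH1 transfers the methyl groups, SUZ12 is the scaffold, EED binds the methylated histone and stimulates the enzyme, and RBBP4 is a histone-binding protein shared with other chromatin complexes. JARID2 and AEBP2 define 1 form of the complex, and PHF19 belongs to the Polycomb-like proteins that define the other. EZH2 is the form of the enzyme that dividing cells rely on most, whereas EZH1 is also found in resting cells.

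The height of a region is the number of fragments over its tallest summit, divided by the library's total in M (mega) fragments. The empty vector library held 27.4 M fragments, PHF19 overexpression 18.2 M, the IFN empty vector 65.9 M and IFN PHF19 overexpression 16.4 M, and the weakest peak called had 10, 8, 16 and 8 fragments. Log2 ratios of heights were centred on the median over all shared regions, meaning those called in each of the 2 libraries compared, and that median lay between -0.11 and 0.17. The vector's gene served as a check of the labels. A narrow peak within PHF19 (hg38, chr9:120857950-120858284) stood at 7.90 and 7.33 fragments per M in the PHF19 overexpression and IFN PHF19 overexpression libraries and was not called in either empty vector library. Summed heights of the 9 plasma cell markers examined were 268 to 432, of which SDC1 alone gave 158 to 314. All 9, from SDC1 to POU2AF1, had a peak in every library. The myeloid markers CD14, LYZ, CSF1R and MPO had none, nor had the B cell genes MS4A1 and PAX5, and the B cell gene CD22 had a peak in the 2 empty vector libraries alone, at 0.51 and 0.35 fragments per M. T cell markers summed to 13.5 to 14.4, most of it from a region at 1 end of CD3E, and stromal or epithelial markers to 11.18 to 17.04. The part of such cells in the results was not tested.

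Sequence before the starts of 4 members is shown. They include AEBP2, whose start region stood higher with PHF19, and EZH2, the main catalytic subunit. The others are EZH1 and EED, which had a region near their far end that stood lower. Each sequence is the 250 bases before the first RefSeq start (GRCh38.p14), 5′ to 3′ on the gene's strand. A start was listed for all 7 members. The far regions of EZH1 and EED lie outside these windows. So do the tallest AEBP2 summits in the PHF19 overexpression and IFN PHF19 overexpression libraries, at -998 and -986 bp. No link between sequence and the differences was tested. Capitals mark matches on either strand to the CCAAT box (CCAAT), the SP box (GGGCGG), the NRF1 motif (GCGCA, any base, GCGC), the E-box (CACGTG), the ETS (CCGGAAG), YY1 (AAGATGG) and CRE (TGACGTCA) motifs and the E2F motif (TTTCCCGC, TTTGGCGC, TTTCGCGC or TTTGCCGC), and adjoining matches run together.
AEBP2, chr12:19440349-19440598, plus strand: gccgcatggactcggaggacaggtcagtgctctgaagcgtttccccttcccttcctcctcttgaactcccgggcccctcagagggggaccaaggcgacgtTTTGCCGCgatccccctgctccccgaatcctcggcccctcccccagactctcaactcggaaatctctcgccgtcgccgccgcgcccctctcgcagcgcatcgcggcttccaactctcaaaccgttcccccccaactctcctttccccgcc
EZH1, chr17:42745041-42745290, minus strand: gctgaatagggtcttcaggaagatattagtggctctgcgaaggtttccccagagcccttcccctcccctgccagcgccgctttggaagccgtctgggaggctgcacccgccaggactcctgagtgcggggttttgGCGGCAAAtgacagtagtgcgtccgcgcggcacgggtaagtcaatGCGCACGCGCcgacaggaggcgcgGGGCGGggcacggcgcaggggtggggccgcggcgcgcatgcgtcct
EED, chr11:86244503-86244752, plus strand: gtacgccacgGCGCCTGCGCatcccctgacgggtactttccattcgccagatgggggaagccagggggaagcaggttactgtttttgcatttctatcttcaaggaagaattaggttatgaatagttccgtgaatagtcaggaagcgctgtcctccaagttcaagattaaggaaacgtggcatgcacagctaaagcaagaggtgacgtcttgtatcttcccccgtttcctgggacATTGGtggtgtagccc
EZH2, chr7:148884292-148884541, minus strand: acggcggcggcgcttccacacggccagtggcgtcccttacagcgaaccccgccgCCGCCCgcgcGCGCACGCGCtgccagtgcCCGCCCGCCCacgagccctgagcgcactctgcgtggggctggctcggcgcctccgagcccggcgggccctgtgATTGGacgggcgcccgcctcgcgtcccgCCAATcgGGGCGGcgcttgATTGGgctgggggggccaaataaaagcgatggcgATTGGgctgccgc
EZH2 held 4 CCAAT boxes in this window, their first bases at -94, -66, -47 and -13 from the start, and AEBP2 and EZH1 held none. The E2F letters occurred in AEBP2 (-150), EZH1 (-115) and SUZ12 (-189), and in 3.73% of 15809 promoters of the same length. CCAAT occurred in 5 of the 7 members and in 34.4% of all promoters, the SP box in 5 and in 56.0%, and the NRF1 letters in 3 (EZH2, EZH1 and EED) and in 7.66%. The E-box occurred in RBBP4 alone among the members and in 7.83% of promoters. No member held the ETS, YY1 or CRE letters, which occurred in 11.8%, 3.35% and 2.32% of promoters. CpG dinucleotides were near or above the level that base composition gives in 6 members, with observed over expected ratios of 0.84 (JARID2) to 1.17 (RBBP4), and lower in EED, at 0.68. The median of all promoters was 0.74.

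All 7 members had a start region with a peak in all 4 libraries. RBBP4 had the tallest start region (chr1:32650327-32651830), with 14.4 fragments per M in the empty vector library, 13.6 in PHF19 overexpression, 11.2 in the IFN empty vector and 11.97 in IFN PHF19 overexpression. This region also holds the start of ZBTB8OS, which runs the other way. EZH2 followed (chr7:148883357-148885265), with 13.7, 11.4, 9.80 and 10.8 in the same order of libraries. JARID2 stood at 11.6, 9.71, 8.68 and 10.99 in the region that reaches its first start (chr6:15244738-15246074), which also holds the start of the divergent transcript JARID2-DT. Only the IFN empty vector peak there extends as far as the listed JARID2 start. The ranges of these 3 genes over the libraries overlap.

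EZH1 was lower (chr17:42744103-42745317), at 7.64, 6.25, 6.18 and 5.98, and a second JARID2 start (chr6:15247986-15249363), which it shares with the antisense gene JARID2-AS1, stood at 7.05, 5.596, 4.89 and 6.72. EED (chr11:86244212-86245952) had 4.86, 3.84, 3.85 and 4.09. AEBP2 (chr12:19439314-19440844) had 3.47, 5.32, 2.64 and 5.13, a range that includes that of EED. SUZ12 was the least open (chr17:31936473-31937782), at 1.97, 1.59, 2.29 and 1.77, below every value of every other member. Start regions of protein-coding genes with a peak in the library numbered 8619, 8570, 8796 and 8575, and starts without a called peak were left out. The median height of these start regions was 8.15, 7.13, 6.51 and 7.45. RBBP4, EZH2 and JARID2 lay above it in each library, and the other 4 lay below it. For SUZ12, 4.68% to 12.4% of these start regions were lower still. SUZ12 has a closely similar pseudogene copy, and how reads that fit both were treated is not given in the sources used here, so its height is uncertain.

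**Figure D1:**
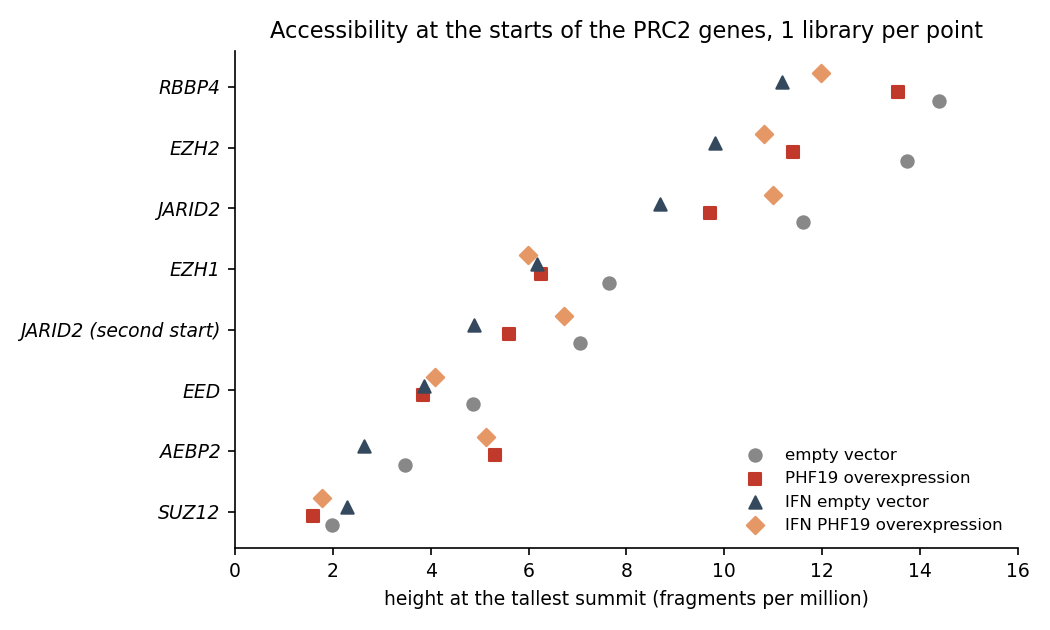
Height of each start region (fragments per M at the tallest summit, linear axis from 0) for the 7 genes and the second start of JARID2, with 1 point for each of the 4 libraries and no error bars, since each group held 1 library. AEBP2 is the member whose PHF19 overexpression libraries, at 5.32 and 5.13, stand well above both empty vector libraries, at 3.47 and 2.64.

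The first question the design poses is whether PHF19 overexpression went with a difference at these regions. It can be read in 2 pairs that share no library, empty vector against PHF19 overexpression and the same 2 vectors among the IFN-titled libraries. As a group the members did not stand apart. Over the 20 regions with a peak in both libraries of the first pair the median log2 ratio was 0.05, and over the 23 of the IFN-titled pair it was 0.00, against 0 by construction for all regions. In the first pair 3 of the 20 regions were at least 1.5-fold higher with PHF19 overexpression and 2 were at least 1.5-fold lower, where 12.8% and 9.16% of 38367 regions were. In the IFN-titled pair 5 of 23 were higher and 2 lower, where 11.8% and 11.0% of 43106 regions were. Most of the 5 were weak JARID2 regions with 16 to 21 fragments in the IFN PHF19 overexpression library, described below. The median peak of that library had 34. In both pairs alike, 1 of 20 was higher and 1 lower, against 4.15% and 5.37% of 35731 regions. The shares in both pairs alike are near the background, and the regions are therefore described singly. Of the 7 starts 1 was higher in both pairs and none lower, where 1.74% and 1.03% of 8457 start regions were.

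**Figure D2:**
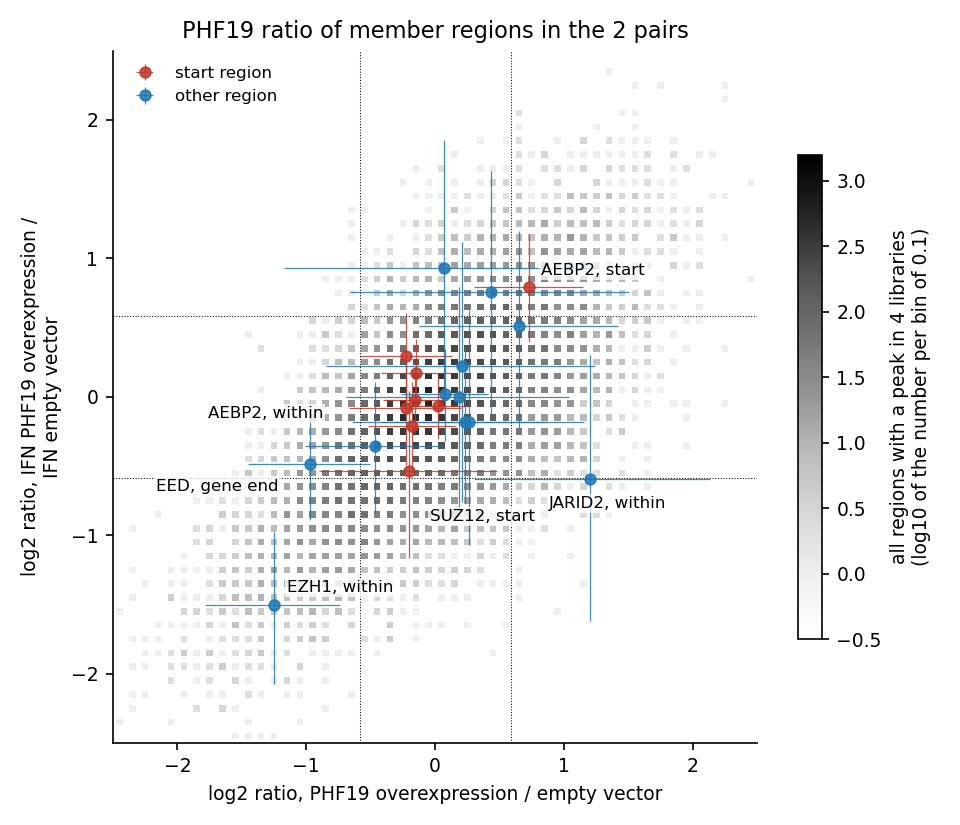
Log2 ratio of each member region with a peak in all 4 libraries in the empty vector and PHF19 overexpression pair (horizontal) and in the IFN-titled pair (vertical), start regions in red and other regions in blue, with 95% counting intervals as bars and dotted lines at 1.5-fold. The grey squares count all 35731 such regions per bin. The region within EZH1 lies at -1.25 and -1.50 and the AEBP2 start at 0.73 and 0.79, and most starts lie near 0.

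EZH1 carried the largest difference of any member that held in both pairs, and it lay far from its start. A region within the gene (chr17:42704690-42705561), with summits 39960 to 40008 bp downstream of the start and its centre at -4850 bp from the gene's end, stood at 5.63 fragments per M with the empty vector and 4.93 with the IFN empty vector. It stood at 2.19 with PHF19 overexpression and 1.95 with IFN PHF19 overexpression, so that both PHF19 libraries were under both empty vector libraries. The log2 ratios were -1.25 (-1.79 to -0.74) and -1.50 (-2.08 to -0.98), or 2.37-fold and 2.83-fold lower. Among the 31289 regions called in every library and averaging at least 1 fragment per M, 252 (0.805%) were as low in both pairs, and 5.84% were at least 1.5-fold lower in both. The median ratio of the regions within 2.5 Mb was -0.09 and -0.06. At the EZH1 start the ratios were -0.18 (-0.52 to 0.16) and -0.21 (-0.55 to 0.11). The intervals of the region within EZH1 and of its start do not overlap in either pair. A small region between them (chr17:42720739-42721461) had a peak in both empty vector libraries, at 0.62 and 0.67 per M, and in neither PHF19 library. At the depth of those libraries it would have had 11.3 and 10.9 fragments, more than 9.05% and 6.23% of the peaks called there, so a region of that size is near the weakest that could be called.

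In EED the region near the far end also stood lower with PHF19, by less. Its start differed little, with log2 ratios of -0.23 (-0.67 to 0.20) and -0.08 (-0.49 to 0.31). The region at its far end (chr11:86286685-86287660), whose centre lay at -443 bp from the gene's last base, stood at 5.92 and 5.02 per M in the empty vector and IFN empty vector libraries and at 2.80 and 4.03 with PHF19 overexpression and IFN PHF19 overexpression. Both PHF19 libraries were again the lower ones. The ratios were -0.97 (-1.45 to -0.51) and -0.49 (-0.89 to -0.10), and the second did not reach 1.5-fold. In both pairs these intervals overlap those of the EED start, and 8.01% of the 31289 regions were as low in both. The difference between the 2 pairs was 0.48 with an interval of -0.11 to 1.08. EED lies in a stretch where the median ratio was -0.23 and -0.12, over 34 and 44 regions, and with that local median taken off the end region was at -0.74 and -0.37. A further region within EED (chr11:86255654-86256506) had 26 fragments with the empty vector (0.95 per M) and 82 with the IFN empty vector (1.24 per M) and was not called in either PHF19 library. It would have had 17.3 and 20.4 fragments at their depth, more than 24.2% and 31.0% of the peaks called there.

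AEBP2 was the member whose start stood higher with PHF19 in both pairs. In the 4 libraries the region had 95, 97, 174 and 84 fragments at the tallest summit, which is 3.47, 5.32, 2.64 and 5.13 per M, and both PHF19 libraries exceeded both empty vector libraries. The ratios were 0.73 (0.30 to 1.15) and 0.79 (0.40 to 1.17), or 1.66-fold and 1.73-fold. Among 8457 start regions of protein-coding genes, 88 (1.04%) were as high in both as AEBP2. The peak was broad, and its summits lay at -998 to -257 bp from the single start listed for AEBP2. Other transcripts of the gene begin elsewhere, and their starts were not used here. At the farthest summit, which lay at -998 to -970 bp in all 4 libraries, the heights were 2.70, 5.32, 2.64 and 5.13.

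The surroundings of AEBP2 also stood higher with PHF19. The median ratio within 2.5 Mb of the gene was 0.56 over 19 regions in the first pair and 0.30 over 29 in the IFN-titled pair, and 89.5% and 82.8% of these regions were above 0. With the median around the start region itself taken off (0.57 and 0.30), the AEBP2 start was at 0.16 and 0.49. The part of the surroundings in the difference was not tested. Within this stretch the other AEBP2 region went the opposite way. It lies inside the gene (chr12:19482238-19483263), 42151 bp downstream of the start, and stood at 3.69 and 3.26 per M in the empty vector and IFN empty vector libraries and at 2.47 and 2.87 in the PHF19 overexpression and IFN PHF19 overexpression libraries. The ratios were -0.47 (-1.01 to 0.05) and -0.35 (-0.84 to 0.11), both with intervals that include 0, and -1.03 and -0.65 with the local median taken off.

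**Figure D3:**
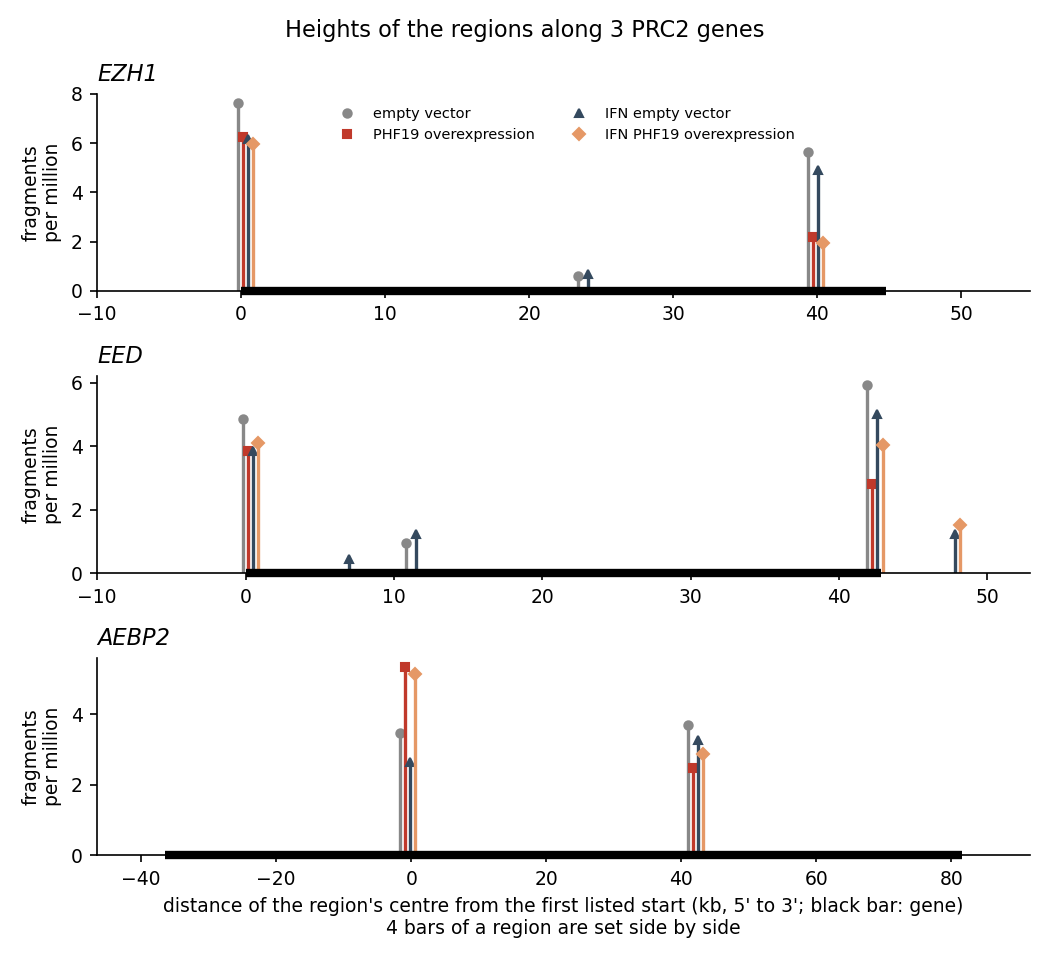
Heights (fragments per M, linear axes from 0) of all regions of EZH1, EED and AEBP2 by the distance of their centre from the first listed start, read 5' to 3', with the gene as a black bar and 1 stem for each library in which a peak was called. In EZH1 both PHF19 stems near the far end are short, at 2.19 and 1.95 against 5.63 and 4.93, in EED the PHF19 overexpression stem there is short, at 2.80, and the IFN PHF19 overexpression stem less so, at 4.03, and in AEBP2 the PHF19 stems are the tall ones at the start and the short ones within the gene.

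**Figure D4:**
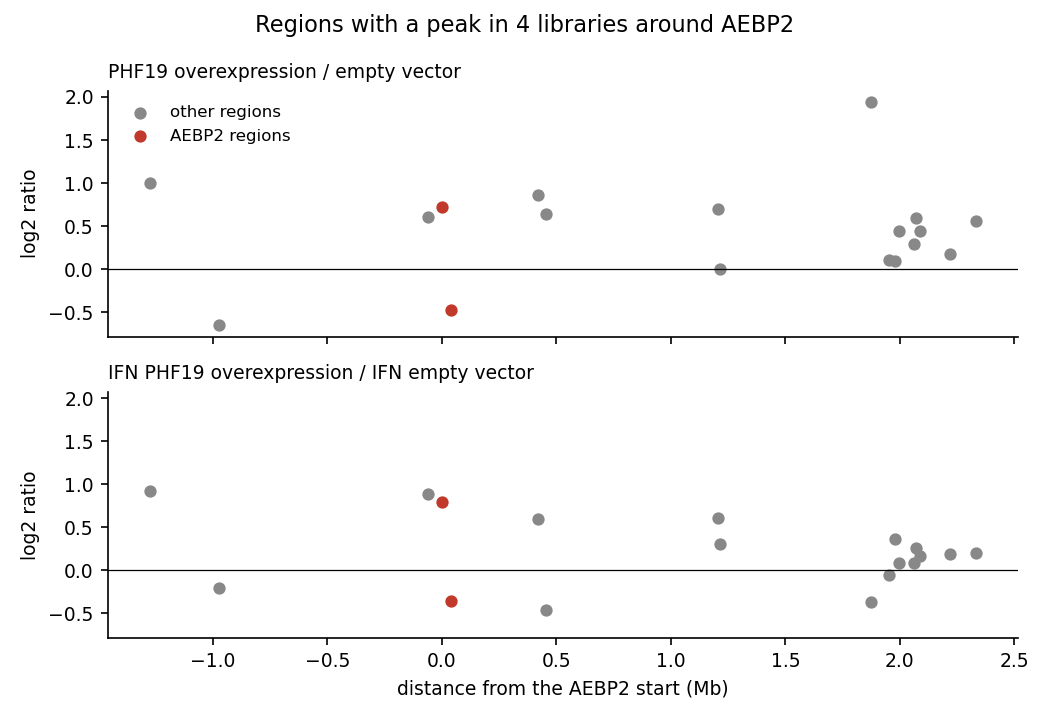
Log2 ratio of each region with a peak in all 4 libraries within 2.5 Mb of the AEBP2 start, for the empty vector and PHF19 overexpression pair (upper panel) and the IFN-titled pair (lower panel), with the 2 AEBP2 regions in red. Most grey points are above 0 in both panels, and the region within AEBP2 at -0.47 and -0.35 is below it.

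RBBP4 and EZH2 differed little at their starts, and SUZ12 stood lower with a wide interval. RBBP4 had ratios of 0.02 (-0.21 to 0.26) and -0.07 (-0.30 to 0.16), intervals that leave out a change of 1.5-fold either way. EZH2 had -0.16 (-0.41 to 0.09) and -0.03 (-0.28 to 0.22), which leave it out too. With the mean over a peak's summits as height, the first of these was -0.55, since the PHF19 overexpression peak alone had a second summit, at 6.09 per M. Its tallest other region (chr7:148856032-148857034), 27758 bp into the gene, was low, at 0.99, 1.10, 0.99 and 0.98 per M, and all of its ratios had intervals that include 0. SUZ12 had -0.20 (-0.90 to 0.48) and -0.54 (-1.17 to 0.04), on 54, 29, 151 and 29 fragments, too few to tell a 1.5-fold difference from none. Of 8457 start regions, 95.7% had both ratios at or above -0.54, the lower SUZ12 ratio. Among the 31289 regions called in every library and averaging at least 1 fragment per M, 20.1% had both at or below -0.20, the higher SUZ12 ratio. With the mean over a peak's summits as height, the SUZ12 start was at -0.48 and -0.91 in the 2 pairs. The second value was past 1.5-fold but within its counting interval. Only the peaks of the PHF19 libraries had further, lower summits there. The only other region in the SUZ12 window (chr17:32006828-32008345) holds the starts of LRRC37B and LOC124903972 and had ratios of 0.07 and 0.02.

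JARID2, the longest gene, held most of the weak regions. At its first start the ratios were -0.15 (-0.42 to 0.12) and 0.17 (-0.08 to 0.42), and at its second start -0.22 (-0.58 to 0.13) and 0.29 (-0.03 to 0.61). Beyond the starts it had 12 regions within the gene, of which the tallest (chr6:15304734-15306299), 59447 bp downstream, stood at 1.86, 2.03, 2.09 and 2.08 per M. Its ratios in the 2 pairs were 0.23 (-0.42 to 0.87) and -0.18 (-0.77 to 0.37). A region 153009 bp downstream (chr6:15398333-15399824) had 1.13 and 0.96 per M in the empty vector and IFN empty vector libraries and 1.65 and 1.53 in the PHF19 overexpression and IFN PHF19 overexpression libraries. Both PHF19 libraries were higher there, and the ratios of 0.65 (-0.12 to 1.42) and 0.51 (-0.22 to 1.20) have intervals that include 0. In the IFN-titled pair 4 weak JARID2 regions passed 1.5-fold upward, at 0.76 to 1.23, on 16 to 21 fragments in the IFN PHF19 overexpression library. None of the 4 passed it in the first pair, where 2 lacked a peak in the PHF19 overexpression library. In the IFN empty vector library, of 65.9 M fragments, they had 26 to 36. The IFN PHF19 overexpression library held 16.4 M, and its weakest called peak had 8 fragments. The part of the unequal depth in these ratios was not tested.

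**Figure D5:**
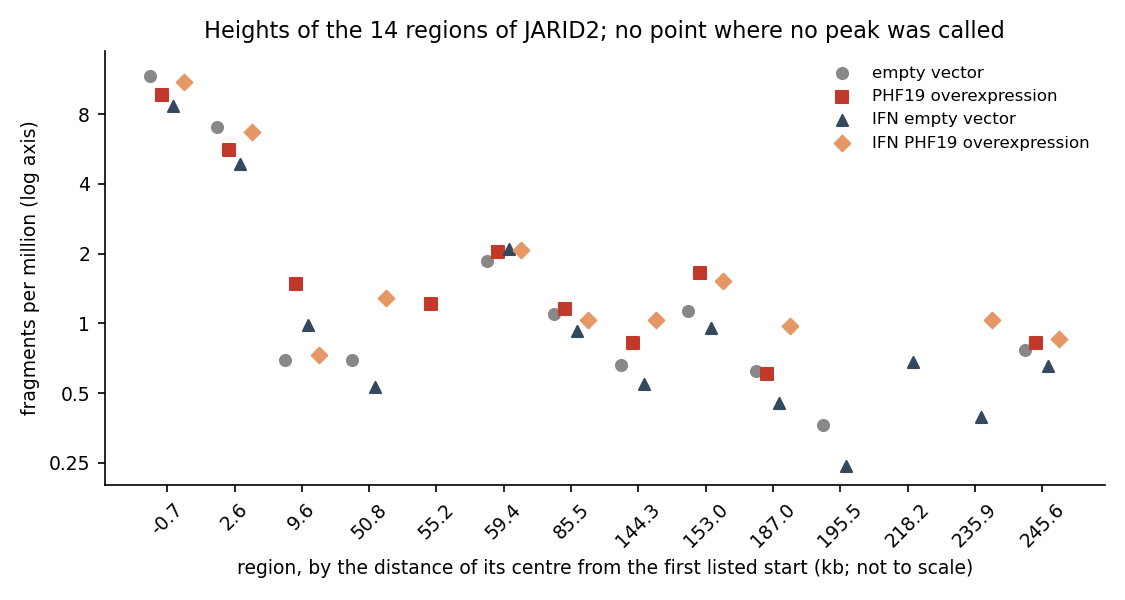
Heights (fragments per M, log axis) of the 14 regions of JARID2 in order along the gene, labelled by the distance of their centre from the first listed start in kb, with 1 point for each library in which a peak was called. The starts stand at 4.89 to 11.6, and of the 12 regions within the gene only the one centred 59447 bp from the start reaches 2 in any library.

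Most member regions were called throughout. Of the 30 regions 20 had a peak in all 4 libraries (66.7%, against 48.5% of all regions), and 3 of the 4 seen in a single library were in the IFN empty vector library, the deepest. The fourth was a JARID2 region (chr6:15301034-15301461) with 22 fragments, 1.21 per M, in the PHF19 overexpression library. In the first pair 4 of 24 empty vector peaks (16.7%) had no overlapping peak with PHF19 overexpression and 1 of 21 (4.76%) the reverse, where 21.5% and 12.0% of all peaks did. In the IFN-titled pair these were 6 of 29 (20.7%) and 0 of 23, where 38.2% and 4.48% of all peaks did. The regions found with both empty vectors and neither PHF19 library numbered 3, those named above in EZH1 and EED and a weak one in JARID2 (chr6:15441369-15441697) with 10 and 16 fragments, and no region had the reverse pattern. At the depth of the PHF19 libraries the JARID2 region would have had 6.7 and 4.0 fragments, where the weakest called peak had 8. Both PHF19 libraries were the shallowest, and the share of all regions with either pattern is not given here.

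The second question is how the IFN-titled libraries differ from the others with the same vector, and it too can be read in 2 comparisons that share no library with each other, though each shares its libraries with the PHF19 comparisons. Of the 24 shared regions with the empty vector the median log2 ratio was -0.17, with 1 region at least 1.5-fold higher and 0 lower, where 6.22% and 1.81% of all regions were. With PHF19 overexpression the median of 20 regions was -0.13, with 0 higher and 1 lower, where 6.65% and 3.64% were. That 1 region in both cases was the JARID2 region 9606 bp downstream of the start (chr6:15255238-15256112), which rested on 12 to 65 fragments. At the starts, 6 of 7 members were below 0 with the empty vector, from -0.22 for EZH1 to -0.40 (-0.59 to -0.22) for EZH2, and the median of all start regions was -0.21 as well. SUZ12 was the exception at 0.30 (-0.16 to 0.78). With PHF19 overexpression the 7 starts ranged from -0.29 for RBBP4 to 0.06 for JARID2, where the median of all start regions was -0.06. No member region passed 1.5-fold in the same direction in both comparisons, where 0.792% of 35731 regions were higher and 0.0532% lower in both. Between the empty vector libraries 5 of 29 IFN empty vector peaks had no overlapping peak and 0 of 24 the reverse, where 31.6% and 2.04% of all peaks did. Between the PHF19 overexpression libraries these were 3 of 23 and 1 of 21, where 15.7% and 12.6% did. The file headers place the IFN empty vector library in another project folder than the other 3, and the part of that in its values was not tested. A region 4790 bp beyond the end of EED (chr11:86291744-86293066) had peaks in the IFN-titled libraries alone, at 1.24 per M with the empty vector and 1.53 with PHF19 overexpression, on 82 and 25 fragments. At the depth of the other 2 libraries it would have had 34 and 27.8 fragments, more than 39.6% and 41.3% of the peaks called there.

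Of 23 further genes of Polycomb biology, 22 had a start region with a peak in all libraries. EZHIP, an inhibitor of PRC2 normally restricted to germ cells, had none. In the first pair none of the 22 passed 1.5-fold in either direction, with a range of -0.40 to 0.52, where 3.74% of all start regions were higher and 2.29% lower. In the IFN-titled pair 2 were higher and none lower, where 3.89% and 2.22% were. They were 2 of the 4 H3K36 methyltransferases among the 22. NSD1 was at 0.52 (0.12 to 0.92) and 0.64 (0.26 to 1.003) in the 2 pairs, and NSD2 at 0.32 (-0.01 to 0.64) and 0.60 (0.29 to 0.91). The other 2 passed the limit in neither pair, with SETD2 at -0.20 and 0.06 and ASH1L at 0.18 and 0.23. The local median around these genes was not taken off. Between the empty vector libraries none passed the limit, where 0.453% of start regions were higher and 1.16% lower. Between the PHF19 overexpression libraries 0 were higher and 1 lower, where 0.635% and 1.23% were. That gene was CBX7, a PRC1 subunit that binds the methylated histone, at -0.64 (-1.21 to -0.08).

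The pattern of a start over the 4 libraries was also compared with that of every other gene, as the distance between the 4 log2 heights after each library's median and each region's own mean were taken off. For AEBP2 the nearest were the shared start region of GDF9 and UQCRQ (0.03) and TMSB10 (0.04), and 0.556% of 8457 start regions lay within a distance of 0.2. For SUZ12 they were FGF12 (0.02), PARP8 (0.04) and PCDHGB4 (0.06), with 0.603% within 0.2. The starts of EZH2, EZH1, EED, RBBP4 and JARID2 had 1946 (RBBP4) to 3134 (EED) of the 8457 within that distance. Over 4 libraries such likeness is a description only, and for those 5 genes it singles out no gene.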

How the data were processed

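Open chromatin was measured by ATAC-seq in 4 AMO1 libraries, 1 per group, assigned by title. Per the file headers the authors called peaks for each library with MACS2 2.1.2 on paired fragments, without a control, with a q cutoff of 0.01, all duplicates retained and subpeak summits searched. The submitters' processing notes also name hg38, bcl2fastq 2.17, Trimmomatic 0.38 and DiffBind, while no aligner is named (not given in the sources used here). Each deposited pileup is a signal, the unscaled fragment coverage at a summit. The -log10 of the q-value and of the p-value, both deposited, and the deposited fold enrichment, a ratio to local background, are the authors' values, and only q was used, to filter. Retained duplicates mean that some fragments may be copies of 1 molecule.

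Summits were collapsed to 1 peak per interval, peaks on chromosomes 1 to 22 and X that overlapped by at least 1 bp were merged into regions, and log2 ratios of height were centred on the median of shared regions. Intervals are exact ones for a ratio of counts, and those of a difference between pairs are approximate. A start region overlaps a start listed by RefSeq, or, for a marker gene with none listed, lies within 1000 bp of a gene end. Lines outside those chromosomes (5, 3, 9 and 4 per library) were left out. Exons and introns were not annotated. One of the marker genes is not reported here. Members and lists were chosen with earlier results of these data known. The text names each member's start region, its tallest other region and regions past 1.5-fold in both comparisons of a kind, one-sided regions in the upper 50% of their list and pathway genes past 1.5-fold. The second JARID2 start, other JARID2 and one-sided regions, SETD2, ASH1L and the motifs were chosen after values were seen. The steps were tested on simulated data. Alternatives were no centring, a local median, a height trend, a q of 1e-05, the mean over summits, other overlaps, windows and list lengths, and a 2-fold limit (Python 3.11.15, scipy 1.17.1).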

Additional observations from a re-analysis of the deposited data

Results flagged for a closer look

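The PHF19 ratio differed between the 2 pairs, with a 95% interval that leaves out 0, at 2 of 20 member regions, both in JARID2. Among 20 such intervals some may leave out 0 by counting error alone. The share of all regions that do so is not given here. At the second JARID2 start the ratio was -0.22 in the first pair and 0.29 in the IFN-titled pair, a difference of 0.51 (0.05 to 0.98). At the region 9606 bp into JARID2 it was 1.20 (0.30 to 2.13) and -0.60 (-1.62 to 0.31), a difference of -1.80 (-3.03 to -0.57), on 19, 27, 65 and 12 fragments (empty vector and PHF19 overexpression first, then the same vectors in the IFN-titled libraries). With 1 library per group neither difference was tested.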

How the results depend on the processing

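Of 252 values under the alternatives 229 kept their level and 23 moved. A start ratio kept its level if it stayed within its counting interval, and a median if it moved by less than the typical counting error. A count did so if it changed by 1.5-fold or less. A change of direction was looked for only at starts past 1.5-fold. AEBP2 alone had such a start, and its ratios stayed above 0 in both pairs. No paired analysis was possible because the groups share fewer than 2 replicate numbers. A fit of the PHF19 difference over the 2 pairs, which would leave 1 residual degree of freedom, was not run. The AEBP2 start in the first pair moved from 0.73 to 0.16 with the local median taken off. In the IFN-titled pair it went from 0.79 to 0.49, which is under 1.5-fold but within its counting interval. With the mean over summits the EZH2 start moved from -0.16 to -0.55 in the first pair and from -0.19 to 0.19 between the 2 PHF19 overexpression libraries, 1 of which has a second, lower summit there. With the height trend taken off, EZH2, RBBP4 and JARID2 were at -0.19, -0.049 and -0.13 between the empty vector libraries, and no member region was higher there (0, from 1). Without centring 1 region was lower in the IFN-titled pair, and between the empty vector libraries 0 were higher and 1 lower. Between the PHF19 overexpression libraries 1 was then higher. With a limit of 2-fold, 1 region was higher and 1 lower in the first pair, 2 and 1 in the IFN-titled pair, and 0 higher between the empty vector libraries. Peaks without an overlap between the empty vector libraries numbered 1 on the empty vector side when 50% of the shorter peak had to overlap. At a q of 1e-05 the IFN empty vector peaks without an overlap numbered 3 against IFN PHF19 overexpression and 3 against the empty vector. With lists of equal length they were 3 and 1, with 5 on the IFN PHF19 overexpression side and 3 on the empty vector side, so the one-sided counts depend on list length.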
